A study of Homo sapiens with 10 samples.

Results

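Histone genes were followed in polyadenylated RNA of HCT116 cells, a human colorectal cancer line. Genes were taken by symbol: those starting HIST1H, HIST2H, HIST3H or HIST4H (HIST genes) and those starting H1F, H2AF or H3F (variant genes). In all, 43 protein-coding genes met this rule, 32 HIST genes and 11 variant genes, and 5 histone pseudogenes were left out. All 43 were among the 17642 genes of the siRNA table. Of these, 21 were among the 13029 genes of the ZMAT3 table, 11 HIST genes and 10 variant genes. The ZMAT3 experiment compared 3 libraries of ZMAT3-WT cells with 3 of ZMAT3-KO cells, to find RNAs that depend on ZMAT3, a zinc finger RNA-binding protein whose gene is a p53 target. The knockout cells were a single clone, and how many wild-type clones were used is not stated. The knockout was made with CRISPR/Cas9 guides around the p53 response element in an intron of ZMAT3, so ZMAT3 RNA was reduced and not abolished. The replicates are therefore cultures of one clone per genotype, and clone and genotype cannot be told apart. The siRNA experiment compared 2 libraries of cells transfected with a control siRNA (siCTRL) with 2 of cells transfected with a pool of 4 siRNAs against p53 (sip53), all taken after 72 hours, to find RNAs that depend on p53. The cells of both experiments were grown in the same medium without any drug.

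Histones package DNA into nucleosomes. An octamer of the core histones H2A, H2B, H3 and H4 holds the DNA, and the linker histone H1 binds outside it. The HIST genes are replication-dependent. They lie in clusters, are transcribed mainly in S phase, and their messenger RNAs end just after a stem-loop that is bound by SLBP instead of in a poly(A) tail. Variant genes are mostly expressed through the cell cycle as ordinary polyadenylated messenger RNAs. Most of their proteins replace core histones at particular sites or times, while H1F0 and H1FX encode linker histones. Capture on oligo(dT) beads, used for all 10 libraries, keeps RNAs with a poly(A) tail. What was measured for a HIST gene is thus the part of its RNA that was captured, and not its whole RNA. A lower captured level from fewer S-phase cells and one from less RNA per cell cannot be told apart in these bulk samples.

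The classes differed in the stem-loop. A stem of 6 base pairs around a loop of 4 bases was searched for in the 100 bases after each stop codon (hg38, GENCODE release 44). It had to open with GG, close with CC, carry TT as the first loop bases and hold at least 5 pairs, with G paired to T allowed. It was found in 31 of the 32 HIST genes, in 1 of the 11 variant genes (H2AFX) and in 68 of 19821 other protein-coding genes (0.343%). HIST1H3E was the HIST gene without a match. The 31 stem-loops had 6 forms, and began 22 to 67 bases after the stop codon. Shown here are the forms of the genes on which the results below turn. The 16 bases of the stem-loop are in capitals, between 4 bases on each side.
HIST2H2BE: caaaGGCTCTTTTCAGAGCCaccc
HIST1H2AC: caaaGGCTCTTTTCAGAGCCcccc
HIST3H2A: taaaGGCTCTTTTCAGAGCCacct
HIST1H2BK: caaaGGCTCTTTTAAGAGCCactt
HIST1H2BD: caaaGGCTCTTTTAAGAGCCacgc
HIST2H4A: caaaGGCCCTTTTTAGGGCCgacc
H2AFX: caaaGGCCCTTTTAAGGGCCacca
The form of HIST2H2BE, HIST1H2AC and HIST3H2A was shared by 18 HIST genes of the H1, H2A, H2B and H3 families. That of HIST1H2BK and HIST1H2BD was held by 5 genes, all of the H2B family. The capitals of HIST2H4A were held by 3 H4 genes, and the other 3 H4 genes had a form that differed in the loop.

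The 3' ends of the annotated transcripts also differed. The hexamer AATAAA, the common polyadenylation signal, was present on the transcript strand in the last 50 bases of the representative transcript of 2 HIST genes, HIST1H4J and HIST2H2BE. It was present there in 6 of the 11 variant genes and in 64.0% of other protein-coding genes. At the end of the transcript that reached farthest downstream it was present in 9 HIST genes, HIST1H2AC and HIST1H2BD among them, in 5 variant genes and in 59.4% of other protein-coding genes. HIST2H2BE lies at chr1:149884459-149886682 on the minus strand of hg38, and its single annotated transcript of 2224 bases ran 1729 bases past the stem-loop. HIST1H2BK (chr6:27146361-27146855, minus strand) ended 5 bases past it. Of the 31 HIST genes with a stem-loop, 12 had an annotated transcript that ran over 100 bases past it, among them HIST1H2AC, HIST1H2BD and HIST3H2A. The transcript of H2AFX ran 1024 bases past its stem-loop. All 32 HIST genes were single-exon genes in their representative transcript, as were 5 of the 11 variant genes. In this annotation 22 HIST genes lay on chromosome 6 and 10 on chromosome 1, whereas the 11 variant genes lay on 10 chromosomes.

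The ZMAT3 libraries were as labelled in the targeted gene. ZMAT3 was at 32.1 to 38.3 CPM (counts relative to the sum of the library) in ZMAT3-WT and at 4.58 to 5.08 CPM in ZMAT3-KO libraries. CDKN1A, a p53 target, fell by 0.53 on the log2 scale in ZMAT3-KO cells. After p53 knockdown it fell from a mean of 503 to 36.0 FPKM (a level per transcript length and library size). The groups of GAPDH overlapped in both experiments. In the ZMAT3 experiment GAPDH had 4652, 4652 and 4652 CPM in ZMAT3-WT and 4716, 4652 and 4652 CPM in ZMAT3-KO. As these libraries share 1 distribution, the values of so high a gene are held nearly equal, and its overlap there is no control. The epithelial markers EPCAM, CDH1, KRT8, KRT18, KRT19 and CDX2 were listed in both tables. The markers LGALS4 and CDX1 were listed in neither, and VIL1 was low, at a mean of 0.18 FPKM. Of 4 markers of other cells, COL1A1 alone was listed in either table. Depth is unknown for both tables, which hold normalized values, and nothing in them gives a counting interval. Within the siRNA experiment the libraries were crossed. Across the 14274 genes tested, the deviation of siCTRL-1 from its group mean had a correlation of 0.62 with that of sip53-2. With 2 libraries per group the deviations mirror each other, so the -0.62 with sip53-1 is the same result. The crossed order touched many histone genes and is given below with their values.

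Variant genes made up most of the captured histone RNA. In the siRNA table, whose values are per length, the variant genes summed to 2055, 2623, 2817 and 2283 FPKM in siCTRL-1, siCTRL-2, sip53-1 and sip53-2. The HIST genes summed to 200.6, 194.8, 173.2 and 171.3 FPKM in the same order, 5.79% to 8.89% of all histone FPKM. The median gene mean was 124 FPKM for the 11 variant genes and 1.19 FPKM for the 32 HIST genes.

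**Figure D1:**
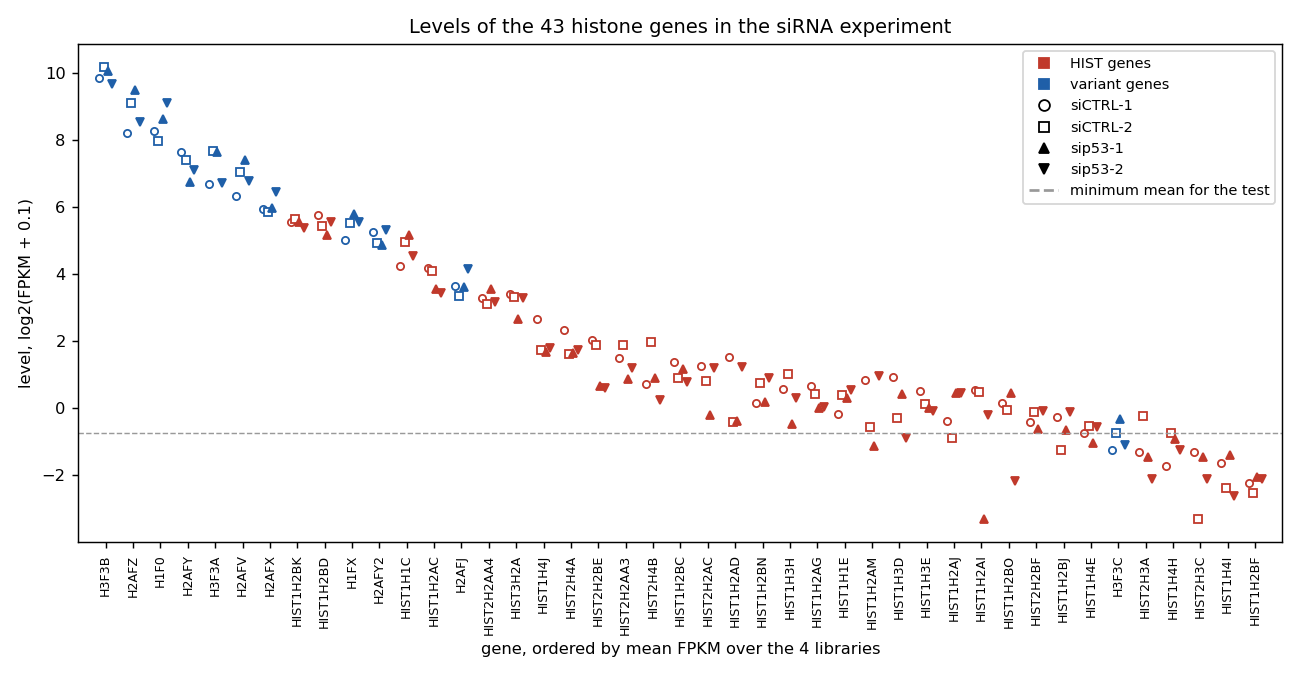
Level of each of the 43 histone genes in the 4 siRNA libraries, as log2(FPKM + 0.1), with genes ordered by their mean. Points are single libraries, open for siCTRL and filled for sip53, red for HIST and blue for variant genes, and the dashed line is the minimum mean of 0.5 FPKM for the test. The 7 highest genes are variant genes, and all genes but 1 below H2AFJ, whose mean is 13.0 FPKM, are HIST genes.

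The highest levels were those of H3F3B, with a mean of 993 FPKM, H2AFZ with 485, H1F0 with 377, H2AFY with 154 and H3F3A with 153 FPKM. H3F3B and H3F3A encode the same replacement histone, H3.3, and H2AFZ encodes H2A.Z. The library values of H2AFY (106.71 to 200.61 FPKM) and H3F3A (103.74 to 203.43 FPKM) overlapped, so their order was not set beyond the spread. H3F3AP4, an H3F3A-like pseudogene left out by the rule, had a mean of 438 FPKM. How reads were split between it and H3F3A is not given, so the level of H3F3A is uncertain here. Only H3F3C, an intronless H3.3-like gene, was low among variant genes, at 0.32 to 0.69 FPKM, and it was not tested.

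Among HIST genes 4 reached a mean of 10 FPKM. HIST1H2BK had 46.4 FPKM, HIST1H2BD 45.1, HIST1H1C 27.0 and HIST1H2AC 14.3 FPKM. The first pair are H2B genes whose library values overlapped. HIST1H1C encodes the linker histone H1.2 and HIST1H2AC a canonical H2A. HIST2H2AA4 (9.64 FPKM) and HIST3H2A (9.04 FPKM) followed, and the remaining 26 genes lay between 0.11 and 3.96 FPKM. The 5 H3 genes were all low, from 0.17 to 1.26 FPKM. In FPKM, genes with and without an annotated transcript running past the stem-loop overlapped widely. The 12 HIST genes that had one ranged from 0.36 to 45.1 FPKM (median 2.02). The 19 that ended within 100 bases ranged from 0.11 to 46.4 FPKM (median 1.11). Of the 12, 6 were among the genes of the ZMAT3 table, and of the 19, 5 were. The levels of these sets were compared per length only. The order per length rested on transcript lengths that the sources used here do not give. HIST1H2AG, for instance, of the set that ended within 100 bases, had 1.13 FPKM beside 71.1 in the authors' mean of scaled counts. HIST1H3H, of the set with a transcript running past, had 1.26 FPKM beside 11.0. That mean was under 10 for 10 of the 32 HIST genes and for none of the variant genes.

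In ZMAT3-KO cells most variant genes were slightly higher, and the HIST genes had no common direction. The HIST values depended most on 1 library, ZMAT3-KO-3. Of the 10 variant genes, 7 rose and 2 fell at an adjusted p of 0.05. Of the 11 HIST genes, 1 rose and 1 fell. Calls were common in this experiment: 28.7% of all 13029 genes were called higher and 30.1% lower, so the count of called HIST genes was below the background and that of variant genes called higher was above it. The median log2 fold change was 0.10 for variant genes and -0.02 for HIST genes, beside -0.01 for all genes. Without ZMAT3-KO-3 the HIST median was -0.23. That library was the highest ZMAT3-KO library of 10 of the 11 HIST genes, so leaving it out lowers the median by construction. No variant gene reached a 1.5-fold change, and of the 21 histone genes 1 did so with an adjusted p under 0.05, beside 8.96% of all genes. Precision differed between the classes, with standard errors of 0.03 to 0.06 on the log2 scale for variant genes and 0.07 to 1.31 for HIST genes. Their medians were 0.03 and 0.17, beside 0.05 for all genes, so the counts set against the background also depend on precision.

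**Figure D2:**
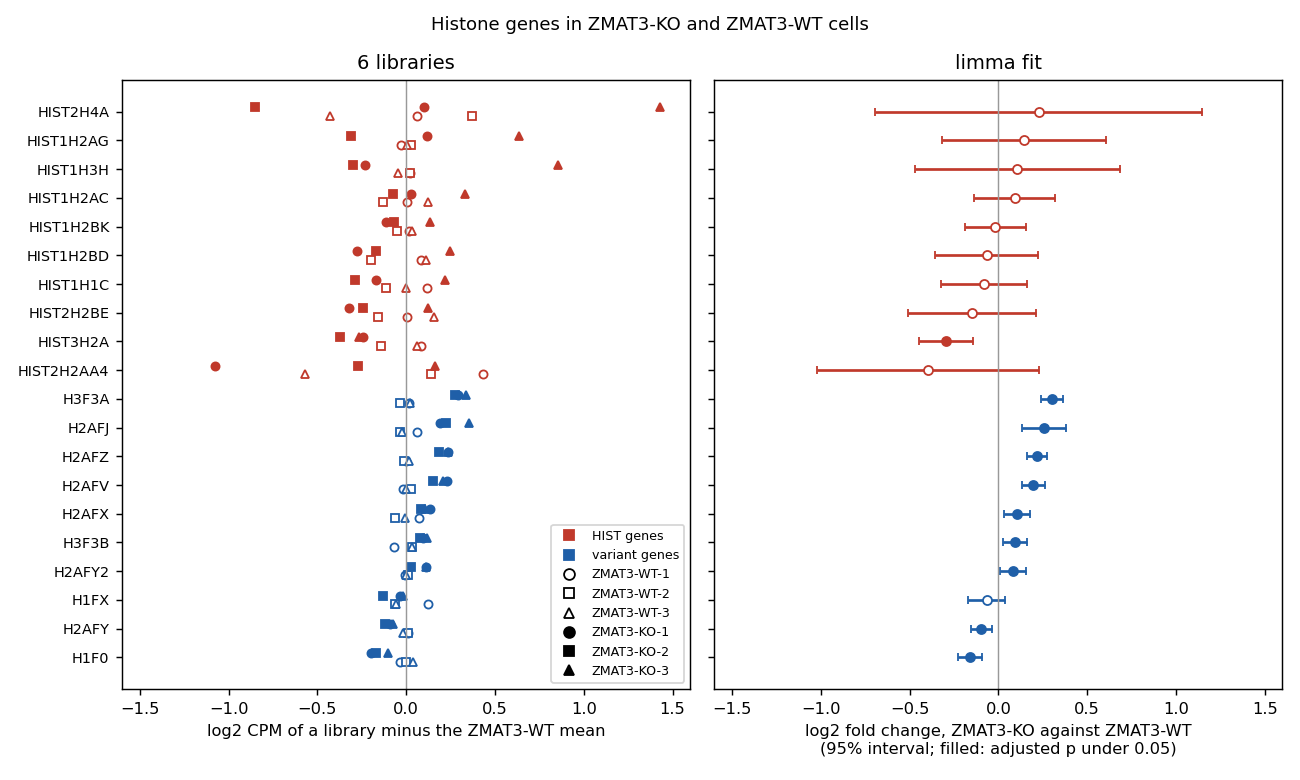
Histone genes in the ZMAT3 experiment, without HIST2H2AA3. On the left are the 6 libraries of each gene as log2 CPM minus the ZMAT3-WT mean, and on the right the log2 fold change with its 95% interval, filled where the adjusted p was under 0.05. The 3 ZMAT3-KO libraries of H3F3A, H2AFJ, H2AFZ and H2AFV lie above the 3 ZMAT3-WT libraries, while ZMAT3-KO-3 is the highest ZMAT3-KO library of every HIST gene shown but HIST3H2A.

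The H3.3 genes rose unequally. H3F3A stood at 272, 263 and 273 CPM in ZMAT3-WT and at 330, 326 and 340 CPM in ZMAT3-KO libraries. Every ZMAT3-KO library was above every ZMAT3-WT library, with a log2 fold change of 0.30 (SE 0.03, adjusted p = 1.73e-06). H3F3B, at 908, 976 and 976 CPM in ZMAT3-WT, had 1018, 1004 and 1033 CPM in ZMAT3-KO, a log2 fold change of 0.10 (SE 0.03, adjusted p = 0.02). The call of H3F3B was lost without the variance trend (adjusted p = 0.0848), without ZMAT3-KO-1 (0.10, adjusted p = 0.0549) and without ZMAT3-KO-3 (0.08, adjusted p = 0.0734). H3F3AP4, a pseudogene left out by the rule, resembles H3F3A, and how reads were split between them is not given in the sources used here.

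The genes of the H2A.Z pair both rose. These proteins replace H2A near promoters. H2AFZ had 552, 549 and 559 CPM in ZMAT3-WT and 652, 628 and 652 CPM in ZMAT3-KO libraries, a log2 fold change of 0.22 (SE 0.03, adjusted p = 1.42e-05). H2AFV, which encodes H2A.Z.2, had 147, 152 and 149 CPM in ZMAT3-WT against 175, 165 and 172 CPM in ZMAT3-KO, a log2 fold change of 0.20 (SE 0.03, adjusted p = 0.000123). Neither gene's groups overlapped. H2AFJ, an H2A variant gene, had 13.1, 12.2 and 12.3 CPM in ZMAT3-WT and 14.3, 14.6 and 16.02 CPM in ZMAT3-KO, a log2 fold change of 0.26 (SE 0.06, adjusted p = 0.00211).

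The other H2A variant genes moved less. H2AFX encodes H2A.X, which is phosphorylated beside DNA breaks, and was the variant gene with a stem-loop. It had 321, 292 and 304 CPM in ZMAT3-WT and 335, 324 and 329 CPM in ZMAT3-KO, a log2 fold change of 0.11 (SE 0.03, adjusted p = 0.0159). The macroH2A genes, whose proteins carry a large extra domain and are enriched on silent chromatin, went opposite ways. H2AFY fell from 280, 280 and 275 CPM to 261, 256 and 264 CPM, a log2 fold change of -0.10 (SE 0.03, adjusted p = 0.00747). H2AFY2 had 77.6, 78.3 and 77.7 CPM in ZMAT3-WT and 84.1, 79.3 and 84.1 CPM in ZMAT3-KO, a log2 fold change of 0.08 (SE 0.03, adjusted p = 0.044). The call of H2AFX was lost without ZMAT3-WT-2 (0.08), ZMAT3-WT-3 (0.10) or ZMAT3-KO-1 (0.10). That of H2AFY2 was lost without any one of ZMAT3-WT-1 (0.08), ZMAT3-WT-2 (0.09), ZMAT3-WT-3 (0.08), ZMAT3-KO-1 (0.07) and ZMAT3-KO-3 (0.07).

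Of the linker histone variants, H1F0 fell and H1FX was not called. H1F0 encodes H1.0, the linker histone of cells that stop dividing. It had 470, 480 and 495 CPM in ZMAT3-WT and 420, 427 and 448 CPM in ZMAT3-KO, a log2 fold change of -0.16 (SE 0.03, adjusted p = 0.000816). H1FX had 148, 130 and 130 CPM in ZMAT3-WT and 132, 124 and 134 CPM in ZMAT3-KO. Its groups overlapped, and the 95% interval of its log2 fold change ran from -0.17 to 0.04.

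HIST3H2A was the HIST gene whose groups stood apart. It encodes an H2A and lies at chr1:228434777-228457873 on the minus strand of hg38, outside the large clusters. It had 12.8, 10.9 and 12.6 CPM in ZMAT3-WT and 10.2, 9.34 and 10.0 CPM in ZMAT3-KO libraries, a log2 fold change of -0.29 (SE 0.07, adjusted p = 0.00286). The other HIST genes with a mean above 3 CPM were not called. HIST1H1C had 8.65, 7.38 and 7.99 CPM in ZMAT3-WT and 7.10, 6.54 and 9.29 CPM in ZMAT3-KO, with a 95% interval of -0.32 to 0.16 on the log2 scale. HIST1H2BK had 6.51, 6.20 and 6.59 CPM against 5.94, 6.12 and 7.04 CPM, with an interval of -0.19 to 0.15. HIST1H2AC had 5.74, 5.23 and 6.24 CPM against 5.82, 5.43 and 7.18 CPM, with an interval of -0.13 to 0.32. HIST1H2BD had 4.38, 3.60 and 4.46 CPM against 3.41, 3.67 and 4.90 CPM, with an interval of -0.36 to 0.22.

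In these genes ZMAT3-KO-3 was the high library. It was the highest of the 3 ZMAT3-KO libraries for 10 of the 11 HIST genes and for 6 of the 10 variant genes, beside 30.5% of all genes. HIST2H4A, an H4 gene, had 1.25, 0.65 and 3.15 CPM in ZMAT3-KO-1 to ZMAT3-KO-3, and HIST1H3H, an H3 gene, had 0.89, 0.85 and 1.89 CPM. HIST1H2AG and HIST2H2BE had 1.92 and 1.64 CPM in ZMAT3-KO-3, against 1.33 and 1.20 CPM in ZMAT3-KO-1. The summed HIST level was 41.3 to 46.5 CPM in ZMAT3-WT, and 39.6, 37.4 and 51.2 CPM in ZMAT3-KO-1, ZMAT3-KO-2 and ZMAT3-KO-3. Without ZMAT3-KO-3, 10 of the 11 HIST genes had a negative log2 fold change, beside 3 of the 10 variant genes (median 0.10) and 50.8% of all genes. HIST1H1C then passed the threshold (log2 fold change -0.23, SE 0.09, adjusted p = 0.0396). In the fit of all libraries 5 of the 11 HIST genes were positive. ZMAT3-KO-3 was singled out by these same values, so leaving it out lowers the HIST fold changes by construction. A fall of the HIST genes is not shown by this fit. HIST3H2A, in which ZMAT3-KO-3 was not the highest, kept its call without ZMAT3-KO-3, at -0.31 (SE 0.08, adjusted p = 0.00691).

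The gene called higher was HIST2H2AA3, one of a pair of H2A genes that cannot be told apart in their coding sequence. HIST2H2AA3 (chr1:149842218-149842750, minus strand of hg38) and HIST2H2AA4 (chr1:149851061-149851594, plus strand) had 390 coding bases each and were 100% identical over them, as were HIST2H3A with HIST2H3C and HIST2H4A with HIST2H4B. HIST2H2AA3 was at the lowest value of the table, -6.62 on the log2 scale, in ZMAT3-WT-1 and ZMAT3-WT-2, and at -0.32 in ZMAT3-WT-3. In ZMAT3-KO libraries it had 0.33, -1.30 and 0.42, a log2 fold change of 4.34 (SE 1.31, adjusted p = 0.0126) whose size rests on that lowest value and whose call was lost without ZMAT3-WT-1 (3.29, adjusted p = 0.0504). HIST2H2AA4 had 3.41, 2.79 and 1.70 CPM in ZMAT3-WT and 1.20, 2.10 and 2.83 CPM in ZMAT3-KO. Summed, the pair had 3.42, 2.80 and 2.50 CPM in ZMAT3-WT and 2.45, 2.50 and 4.17 CPM in ZMAT3-KO, and its log2 fold change was 0.03 (SE 0.19, adjusted p = 0.901). The pair as a whole thus showed no detectable change, and the call of HIST2H2AA3 was absent from the summed values.

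**Figure D3:**
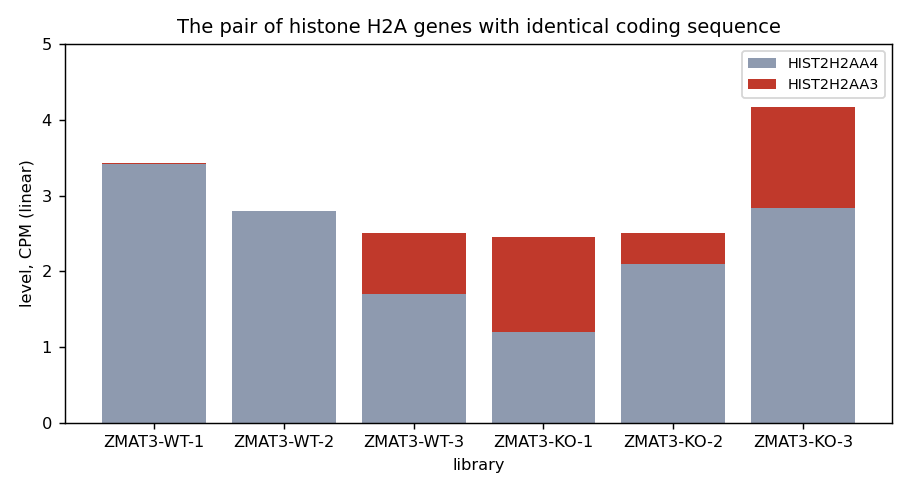
Linear CPM of HIST2H2AA3 (red) stacked on HIST2H2AA4 (grey) in the 6 libraries of the ZMAT3 experiment. The red part is near 0 in ZMAT3-WT-1 and ZMAT3-WT-2, while the full bars range from 2.45 to 4.17 CPM and overlap between the groups.

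Genes that make, process and carry histones were called in ZMAT3-KO cells about as often as other genes, of which 58.8% were called in either direction. Of 29 genes of histone messenger RNA transcription and 3' processing, 6 rose and 13 fell (65.5% called), with a median log2 fold change of -0.06, beside -0.01 for all genes. LSM10, a subunit of the U7 particle that cleaves histone messenger RNA, rose by 0.57 (SE 0.04, adjusted p = 3.03e-07). SLBP, the stem-loop binding protein, named here for its role, fell by 0.15 (SE 0.03, adjusted p = 0.000403). Of 29 histone chaperone genes 6 rose and 11 fell (58.6% called), with a median of -0.01. UBN1, of the HIRA complex that deposits H3.3, fell by 0.79 (SE 0.03, adjusted p = 9.54e-10), EP400, of a complex that exchanges H2A.Z, fell by 0.41 (SE 0.04, adjusted p = 9.19e-07), and ASF1A, an H3-H4 chaperone, rose by 0.44 (SE 0.04, adjusted p = 5.89e-07).

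DNA replication genes share S phase with the HIST genes. Of 25 such genes 2 rose and 12 fell in ZMAT3-KO cells, with a median of -0.04. Their share of calls, 56%, was near that of all genes. PRIM1, a primase subunit, fell by 0.43 (SE 0.04, adjusted p = 1.73e-06). The 25 genes summed to 5806 to 5845 CPM in ZMAT3-WT and 5403 to 5500 CPM in ZMAT3-KO libraries, and their sum did not share the high value of ZMAT3-KO-3. Of the 6 epithelial markers listed, KRT8, KRT18 and KRT19 had log2 fold changes of -0.94, -0.82 and -1.75, and each was called lower. The part of these differences in the histone values was not tested.

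After p53 knockdown a few histone genes passed an unadjusted p of 0.05 and none passed the adjusted threshold. Of the 27 HIST genes tested, 1 was called higher and 2 lower, and of the 10 variant genes 1 was called higher and 1 lower. Among all 14274 genes tested 5.86% were called higher and 9.28% lower at this threshold, and 0.273% passed an adjusted p of 0.05. When each library was first centred on the median of its genes, 1120 genes were called higher and 1048 lower, where the uncentred values gave 836 and 1325. The median log2 fold change was -0.29 for HIST genes and 0.33 for variant genes, beside -0.04 for all genes. HIST genes were negative in 21 of 27 cases, beside 54.1% of all genes tested. The HIST median was -0.46 without siCTRL-2, and the variant median was 0.0989 without siCTRL-1 and 0.16 without sip53-1. The 95% interval of 24 of the 27 included 0, and 16 of them had a mean under 2 FPKM. The summed HIST level was lower in both sip53 libraries than in either siCTRL library, while the summed variant levels of the groups overlapped.

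**Figure D4:**
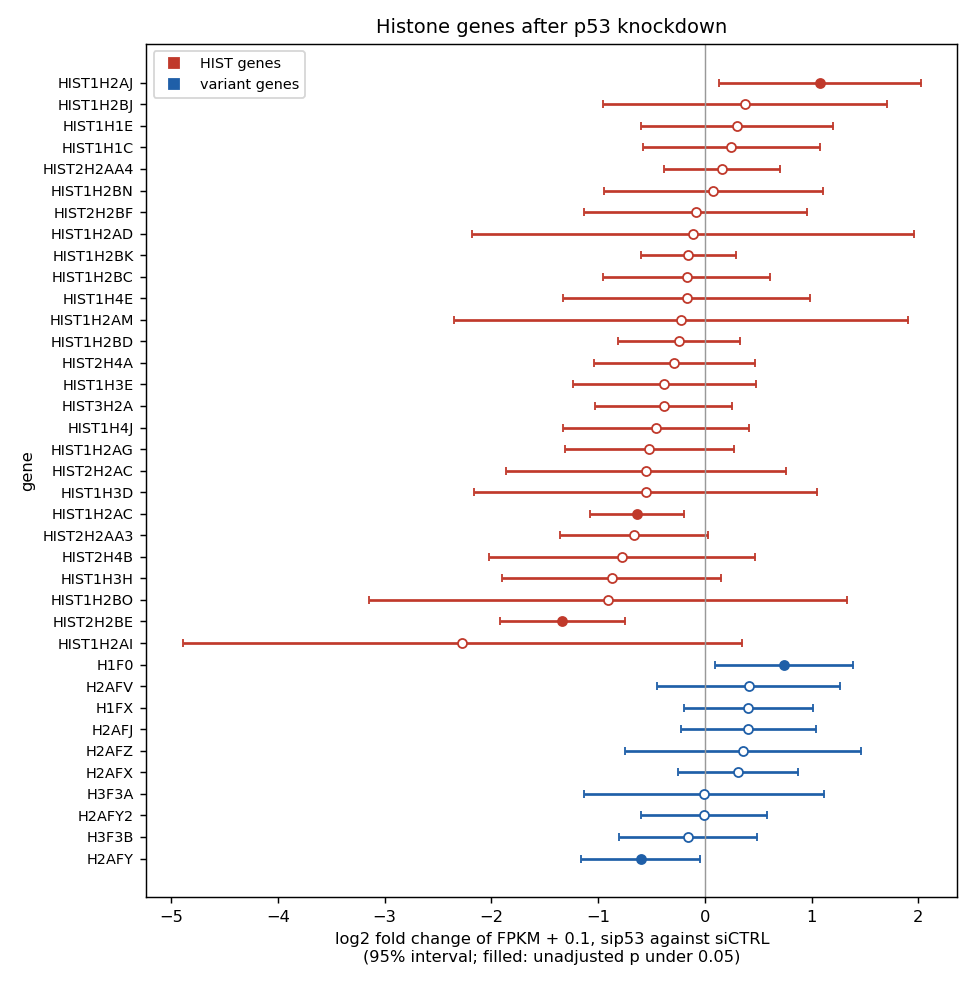
Log2 fold change of FPKM + 0.1 in sip53 against siCTRL for the 37 histone genes tested, with 95% intervals, red for HIST and blue for variant genes. Filled points had an unadjusted p under 0.05. HIST2H2BE, HIST1H2AC and H2AFY lie below 0 with intervals that exclude it, and HIST1H2AJ and H1F0 lie above.

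HIST2H2BE had the clearest difference. This H2B gene, with the long transcript and the AATAAA described above, had 4.00 and 3.60 FPKM in siCTRL and 1.49 and 1.40 FPKM in sip53. The groups stood well apart, and the log2 fold change was -1.33 (SE 0.23, adjusted p = 0.117). Its mean of scaled counts was 164. HIST1H2AC had 17.98 and 16.83 FPKM in siCTRL and 11.60 and 10.73 FPKM in sip53, a log2 fold change of -0.64 (SE 0.17, adjusted p = 0.207). The call of HIST1H2AC was lost without siCTRL-1 (-0.59), siCTRL-2 (-0.68) or sip53-2 (-0.58), and that of HIST2H2BE was kept in each of these fits. With 1 siRNA library left out, an arm holds a single library that is assumed to vary like the other arm, and 1 residual degree of freedom is left. A call lost in such a fit, here and below, does not by itself show a smaller difference. The fold change in brackets gives the size of the difference in that fit. In the ZMAT3 experiment neither gene was called, with log2 fold changes of -0.15 (SE 0.17) and 0.09 (SE 0.10). The difference between the experiments was not tested.

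HIST1H2AJ, an H2A gene, was called higher at a very low level. It had 0.66 and 0.44 FPKM in siCTRL and 1.25 in both sip53 libraries, a log2 fold change of 1.08 (SE 0.38, adjusted p = 0.281), and its mean of scaled counts was 8.62. The call was lost without siCTRL-2 (0.83), sip53-1 (1.08) or sip53-2 (1.08). Its coding sequence was 96.7% identical to that of HIST1H2AI. HIST1H2AI had 1.36 and 1.29 FPKM in siCTRL, was listed at 0 in sip53-1 and had 0.77 FPKM in sip53-2, with an adjusted p of 0.382. HIST2H3C was listed at 0 in siCTRL-2 and was below the minimum level for the test, with 0.30 FPKM in siCTRL-1, 0.26 in sip53-1 and 0.13 in sip53-2.

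The remaining HIST genes with higher levels were not called. HIST1H2BK had 47.26 and 50.35 FPKM in siCTRL and 46.52 and 41.33 in sip53, and the 95% interval of its log2 fold change ran from -0.60 to 0.29. HIST1H2BD had 54.10 and 43.40 FPKM against 35.72 and 47.02, with an interval of -0.82 to 0.33. HIST3H2A had 10.37 and 9.94 FPKM against 6.23 and 9.61, a log2 fold change of -0.39 with an interval of -1.03 to 0.26. These intervals allow changes of up to 1.5-fold or more in at least 1 direction.

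Summing the copies mattered in this experiment too. HIST2H4A and HIST2H4B, identical in their 309 coding bases, had opposite values in the siCTRL libraries: 4.90 and 2.95 FPKM for the first and 1.55 and 3.79 FPKM for the second. Their sum was 6.45 and 6.74 FPKM in siCTRL and 4.75 and 4.30 in sip53, a log2 fold change of -0.54 (SE 0.19, adjusted p = 0.286), past the unadjusted threshold, where neither copy passed alone. HIST2H2AA3 and HIST2H2AA4 summed to 12.29 and 12.16 FPKM in siCTRL and 13.32 and 11.01 FPKM in sip53, a log2 fold change of -0.01 (SE 0.19). The individual copies were at -0.66 and 0.16.

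Among variant genes H1F0 was called higher and H2AFY lower. H1F0 had 308.63 and 252.44 FPKM in siCTRL and 392.17 and 555.77 in sip53, a log2 fold change of 0.74 (SE 0.26, adjusted p = 0.276). H2AFY had 200.61 and 169.71 FPKM in siCTRL and 106.71 and 138.21 in sip53, a log2 fold change of -0.60 (SE 0.22, adjusted p = 0.298). Neither gene's groups overlapped. The call of H1F0 was lost without siCTRL-1 (0.89), siCTRL-2 (0.60) or sip53-2 (0.49), and that of H2AFY without siCTRL-1 (-0.48), siCTRL-2 (-0.72) or sip53-1 (-0.42), and with median centring. H2AFX, with 61.70 and 57.70 FPKM against 63.04 and 86.84, and H1FX, with 32.04 and 45.68 against 55.33 and 46.59, were not called, at log2 fold changes of 0.31 (SE 0.22) and 0.41 (SE 0.24). H2AFJ had 12.27 and 9.96 FPKM against 12.21 and 17.66, a log2 fold change of 0.41 (SE 0.25). H2AFY2 had 38.11 and 30.36 FPKM against 29.06 and 39.32, a log2 fold change of -0.01 (SE 0.24).

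The spread of the other variant genes followed the crossed libraries. H2AFZ had 297.14 FPKM in siCTRL-1 and 548.29 in siCTRL-2, then 721.76 in sip53-1 and 370.62 in sip53-2. H2AFV had 80.05, 133.08, 170.36 and 110.75 FPKM in the same order, and H3F3A had 103.74, 203.43, 199.12 and 104.90 FPKM. In each of these genes siCTRL-2 and sip53-1 were the high libraries. Their log2 fold changes were 0.36 (SE 0.44), 0.41 (SE 0.34) and -0.01 (SE 0.44), and none was called. H3F3B had 919.95, 1171.87, 1066.86 and 811.83 FPKM, with a log2 fold change of -0.16 (SE 0.26). All 10 variant genes tested followed one of the crossed orders: 5 were high in siCTRL-2 and sip53-1, and 5 in siCTRL-1 and sip53-2, as were 36.0% and 38.4% of all genes. Of the 27 HIST genes 3 and 10 did so, HIST1H1C among the former, with 18.90, 30.64, 35.48 and 23.06 FPKM.

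**Figure D5:**
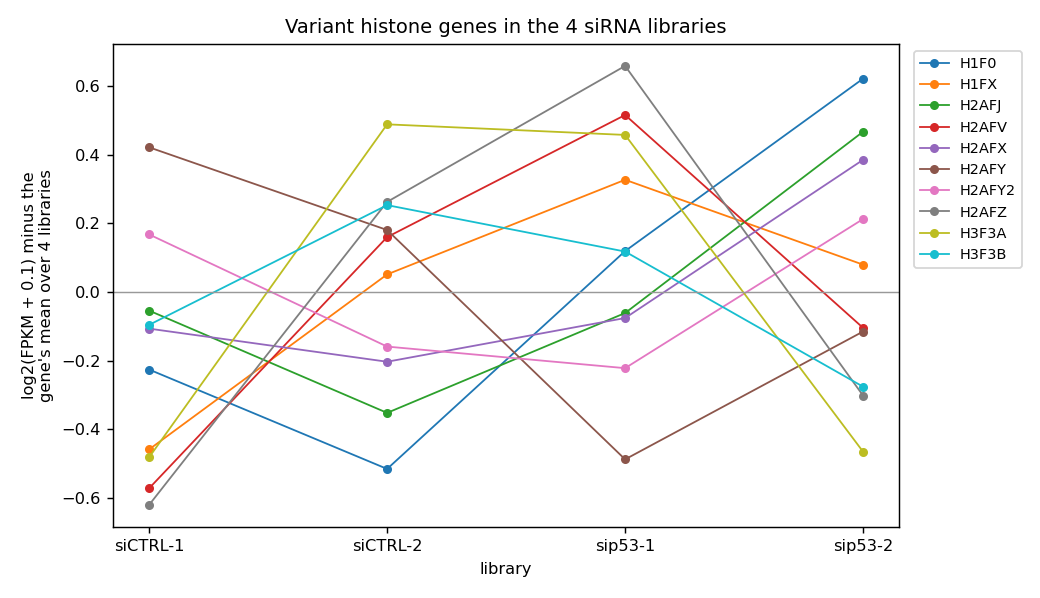
The 10 variant genes tested in the 4 siRNA libraries, as log2(FPKM + 0.1) minus the gene's mean over the libraries, with 1 line per gene. H2AFZ, H2AFV, H3F3A, H3F3B and H1FX are higher in siCTRL-2 than in siCTRL-1 and higher in sip53-1 than in sip53-2, and the other 5 genes have the opposite order in both groups.

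Among all genes tested after p53 knockdown 15.1% were called in either direction, and the related gene groups had shares of 4% to 10.3%, on counts of 1 to 3 calls. Of 28 genes of histone messenger RNA transcription and 3' processing 2 were called lower, CCNE2, a cyclin, at -0.62 (SE 0.20, adjusted p = 0.252) and CDK9, a transcription kinase, at -0.68 (SE 0.20, adjusted p = 0.218). Of 29 chaperone genes 2 were called higher and 1 lower. CENPA, itself a centromeric H3 variant, was at 1.14 (SE 0.20, adjusted p = 0.114), and its chaperone HJURP was at 0.83 (SE 0.24, adjusted p = 0.224). HIRA, the H3.3 chaperone, was at -0.44 (SE 0.18, adjusted p = 0.328). Of 25 DNA replication genes 1 was called lower, RRM2, a ribonucleotide reductase subunit, at -0.76 (SE 0.21, adjusted p = 0.206). The replication genes summed to 1530 and 1557 FPKM in siCTRL and 1403 and 1354 in sip53. Most of this lay in RRM2, with means of 219 and 130 FPKM, and PCNA, with means of 267 and 195 FPKM. Others were higher in sip53, MCM7 among them (means of 148 and 169 FPKM). The median log2 fold change of the 25 genes was -0.04, as for all genes. The part of replication genes in the HIST values was not tested. The 29 chaperone genes summed to 3877 and 4534 FPKM in siCTRL and 5060 and 4299 in sip53, with the high libraries of H2AFZ and H3F3A. NPM1 alone had 1897.29 and 2637.65 FPKM in siCTRL and 3028.80 and 2037.57 FPKM in sip53. The order of the sums was thus that of this 1 gene and not of the chaperone genes as a group.

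Side by side, H2AFY and H1F0 were the histone genes called in both experiments. The calls rested on an adjusted p in ZMAT3-KO cells and on an unadjusted p after p53 knockdown. Neither gene passed the adjusted threshold after p53 knockdown. How many of all genes were called in both was not counted, so whether histone genes shared more or fewer calls was not tested. H2AFY was called lower in both, at -0.10 in ZMAT3-KO cells and -0.60 after p53 knockdown. H1F0 was called in both with opposite signs, -0.16 and 0.74. HIST3H2A was lower in ZMAT3-KO cells, at -0.29, and was at -0.39 after p53 knockdown, where it was not called. ZMAT3 RNA itself was reduced in both experiments, with log2 fold changes of -2.89 (SE 0.07) in ZMAT3-KO cells and -2.31 (SE 0.28) after p53 knockdown. The values of the experiments were normalized apart and on different scales, and the differences between them were not tested.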

How the data were processed

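Polyadenylated RNA of 10 HCT116 libraries was analysed: 3 ZMAT3-WT, 3 ZMAT3-KO, 2 siCTRL and 2 sip53. Groups were taken from the sample labels. For the ZMAT3 experiment the authors used Cutadapt, STAR with hg38, and RSEM, and deposited log2 CPM values. The step from counts to log2 CPM is not given in the sources used here, and the 6 libraries share 1 distribution. In the siRNA table the header names no unit, and its deposited library values were taken as FPKM. It also holds a signal column, the authors' mean of scaled counts. The submitters' processing notes name CASAVA 1.8.2, TopHat2 2.0.8, FastQC 0.11.2, hg19 and hg38 without roles. Fold changes and p-values of the authors' own comparisons stand in both tables and were not used. Depth is unknown, so count models were not used. The level of the gene targeted by the siRNA pool is not reported here.

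Each table was tested across all its genes with limma 3.58.1 in R 4.3.3 (variance trend, two-sided, Benjamini-Hochberg adjustment). The ZMAT3 test used deposited log2 values without a filter and called an adjusted p under 0.05. The siRNA test used log2(FPKM + 0.1), kept genes averaging 0.5 FPKM or more, and called an unadjusted p under 0.05, after the study's own threshold. Fold changes on this scale understate changes of low genes. The fits were tested on simulated data. CPM in the text is 2 to the power of the deposited value. Named genes were all variant genes, HIST genes called with a 1.5-fold change, the 6 highest HIST genes, those listed at 0, control genes and up to 6 genes of the related lists per comparison. HIST3H2A apart from its level, HIST2H4A, HIST2H4B, HIST1H3H, HIST1H2AG and SLBP were discussed after their values were seen. The members and lists were chosen with earlier results of these data known. Same-numbered ZMAT3-WT and ZMAT3-KO libraries were checked and did not deviate together. Genes were matched to GENCODE release 44 by identifier or symbol, all 43 of them, with sequences read from hg38 with pysam 0.24.0. Tables were handled with pandas 2.3.3 and drawn with matplotlib 3.10.9. The labels call the replicates biological. Those of ZMAT3-KO were cultures of 1 clone, and the number of ZMAT3-WT clones is not stated.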

Additional observations from a re-analysis of the deposited data

How the results depend on the processing

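The median log2 fold change of HIST genes in ZMAT3-KO cells was -0.23 without ZMAT3-KO-3 and -0.0436 to 0.0387 without any other library. In the siRNA experiment leaving out libraries gave -0.46 to -0.20 for HIST and 0.0989 to 0.37 for variant genes. The other alternatives run moved these medians by less than the spread between replicates, as did all those run for variant genes in ZMAT3-KO cells. Of 397 alternative values of named genes, 340 kept their direction and their side of the threshold, 34 lost the call, 4 gained it and 19 changed sign, all 19 in genes that were not called. With an adjusted p and a 1.5-fold change, ZMAT3-KO cells had 599 genes higher and 569 lower, 0 HIST genes lower, and 0 variant genes in either direction. HIST genes called higher were 0 with a mean log2 CPM of at least 0, without the variance trend, at an adjusted p of 0.01, and with near-identical copies summed, an alternative chosen after seeing the data. Variant genes called higher were 4 without the trend and 4 at an adjusted p of 0.01. Leaving out each ZMAT3 library in turn gave 0 to 1 HIST genes higher, with 0 without ZMAT3-WT-1. HIST genes lower were 1 to 2, with 2 without ZMAT3-WT-3 or ZMAT3-KO-3, and variant genes higher were 4 to 7, with 4 without ZMAT3-KO-1. Except at the 1.5-fold threshold, the share of all genes called under these ZMAT3 settings is not given here. These counts therefore do not show whether histone genes moved apart from other genes. In the ZMAT3 experiment same-numbered libraries shared only a number (correlations of their deviations -0.04, -0.02 and -0.09), and the replicate block changed no histone count.

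For sip53 against siCTRL, an adjusted p left 5 genes higher and 34 lower and 0 histone genes. A mean of at least 5 FPKM gave 555 genes higher, with 0 HIST genes higher and 1 lower. With the replicate block 434 genes were higher and 650 lower, with 0 HIST genes and 0 variant genes higher, 2 HIST genes lower and 0 variant genes lower. Same-numbered libraries had a correlation of -0.62, and with the crossed pairing as a block, chosen after seeing the data, 2410 genes were higher and 3128 lower, among them 8 HIST genes lower and 6 variant genes higher. Without the variance trend 4 HIST genes and 0 variant genes were lower, and with median centring 0 variant genes were. The share of all genes called without the trend is not given here. Leaving out each siRNA library in turn gave 482 to 720 genes higher and 635 to 1171 lower, 0 to 1 HIST genes higher and 2 to 5 lower, and 0 to 2 variant genes higher and 0 to 1 lower. H2AFY2 and H3F3A were at 0.0668 and 0.0684 with median centring. The ranges of log2 fold change when libraries were left out, for genes that changed sign, were -0.23 to 0.0227 (HIST1H1C), -0.0252 to 0.18 (HIST1H2AC), -0.22 to 0.0387 (HIST1H2BD) and -0.0916 to 0.0305 (HIST1H2BK) in the ZMAT3 experiment. In the siRNA experiment they were -0.23 to 0.21 (H2AFY2), -0.12 to 0.84 (H2AFZ), -0.49 to 0.48 (H3F3A), -0.35 to 0.0391 (H3F3B), -0.0988 to 0.60 (HIST1H1C) and -0.0376 to 0.36 (HIST2H2AA4). Depth could not be read from either table.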

Other observations

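A pair of histone pseudogenes outside the rule had values in both tables. HIST2H2BD, an H2B-like pseudogene, had 3.38, 3.79 and 4.28 CPM in ZMAT3-WT and 6.02, 7.14 and 6.08 CPM in ZMAT3-KO libraries, a log2 fold change of 0.75 (SE 0.10, adjusted p = 4.58e-05). This was larger than the change of any histone gene of the ZMAT3 table other than HIST2H2AA3. After p53 knockdown it had 2.82 and 3.23 FPKM in siCTRL and 1.98 and 3.41 FPKM in sip53, with an adjusted p of 0.817. H3F3AP4, an H3F3A-like pseudogene, rose in ZMAT3-KO cells as H3F3A did, from 25.8, 24.9 and 27.4 CPM to 35.4, 32.1 and 37.7 CPM, a log2 fold change of 0.43 (SE 0.06, adjusted p = 3.9e-05). In the siRNA table H3F3AP4 was listed at 474.35 and 424.33 FPKM in siCTRL and 412.43 and 441.40 FPKM in sip53. These values were above those of H3F3A in every library, and their order of libraries within both groups was the opposite of that of H3F3A.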
